A study of Mus musculus with 30 samples.

Results

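Transcripts of 9 receptors for hematopoietic growth factors were followed in cultured mouse dendritic cells: Flt3, Kit, Csf1r, Csf2ra, Csf2rb, Csf2rb2, Csf3r, Il3ra and Il7r. They were taken by gene symbol from a table of 25611 gene rows, and all 9 were found and passed the filter on low counts. After 4 h with apoptotic Jurkat cells, the transcript of Flt3, the receptor for the cytokine in which the cells were grown, fell to 0.406 of its untreated level in wild-type cells. In the same libraries Csf2rb, a beta chain shared by the GM-CSF and interleukin 3 receptors, rose 1.99-fold. Csf2rb2, a beta chain used for interleukin 3, rose 2.68-fold. Ovalbumin protein and the 30 min time point moved the receptors by at most 0.27 on the log2 scale. Between the genotypes few of them differed, and the clearest difference was a higher Kit level in knockout cells after 4 h with Jurkat cells.

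Flt3, Kit and Csf1r encode related receptor tyrosine kinases, which pair when their ligand binds and phosphorylate each other. The other receptors have no kinase of their own and borrow Janus kinases, which activate STAT transcription factors. Flt3 ligand drives the growth of dendritic cells from bone marrow, Kit marks progenitors and mast cells, and Csf1r marks monocytes, macrophages and some dendritic cells. GM-CSF acts on mature and inflammatory dendritic cells through Csf2ra paired with a beta chain.

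Bone marrow was cultured with FLT3L (200 ng/ml) until day 6 to 7 to give dendritic cells, in every group including the controls, and RNA was sequenced. The marrow came from mice with a knockout of Rubcn (KO) or from Rubcn wild-type mice (WT). Rubcn encodes Rubicon, a protein of LC3-associated phagocytosis, which is a form of non-canonical autophagy. In each genotype cells were untreated, were given ovalbumin protein (OVA) for 30 min or 4 h, or were fed apoptotic Jurkat cells for the same times. Jurkat is a T-cell line from a human leukaemia. Each of these 10 groups held 3 libraries. The labels give no age, sex or Rubcn allele design and do not say whether replicates came from separate mice or cultures, so p-values measure only the spread between these libraries, which may be technical. The cells were not described as sorted, so each level is an average over the culture, in which fewer cells of a type and less RNA per cell cannot be told apart.

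Library totals ranged from 9.73 M counts (KO, OVA 30 min, replicate 3) to 51.6 M, around a median of 44.9 M. Rubcn itself was 98.9 ± 4.96 CPM (SD, n = 3) in WT and 72.8 ± 2.74 CPM in KO before treatment, and KO libraries lay below WT libraries in all 5 conditions. Reads for Rubcn remained in KO, and the labels do not say which part of the gene was deleted. The dendritic cell genes Itgax, Zbtb46, H2-Ab1, Cd74 and Dpp4 summed to 14580 ± 1163 CPM in WT and 15060 ± 928 CPM in KO, both untreated. Markers of Jurkat origin, 12 genes of the T lineage, summed to 72.6 CPM in untreated WT, 106 after 30 min and 143 after 4 h with Jurkat cells. In KO the same sums were 81.9, 95.5 and 113 CPM. Of the 12 genes 8 were under 1 CPM in untreated cells of each genotype. After 4 h 10 of 11 tested were called higher and 1 lower in WT (median log2 change 2.93), and 9 higher and 2 lower in KO (1.94). Of all genes 38.9% (WT) and 37.5% (KO) were called higher. In KO against WT at 4 h 5 of the 11 were lower and 0 higher (median -0.41), where 22.9% of all genes were called. The part of human RNA in any receptor's count was not tested. Library 2 of the KO Jurkat 4 h group stood apart from its replicates, with a chi-square per degree of freedom of 129.1 and 134.1 over all counted genes, where its replicates differed by 4.98 and pairs in the other groups by at most 16.7. Without it the KO response to 4 h of Jurkat cells called 8 receptors, where 75.1% of all genes were called, so that count is near the background. Flt3 was then at -1.17 and Csf2rb2 at 1.32. Kit was higher in KO than in WT by 0.29 (FDR 0.00018), where 15.6% of all genes were called.

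Levels are CPM, counts scaled to a common library total, on TMM-scaled library sizes, given as the mean ± SD over 3 libraries. Differences are log2 fold changes from edgeR's quasi-likelihood F test with their standard error (SE), and a gene was called at a Benjamini-Hochberg adjusted p (FDR) under 0.05 over 14808 genes. The wild-type response to 4 h of Jurkat cells called 7 of the 9 receptors, 5 higher and 2 lower, where 79.5% of all tested genes were called, 38.9% higher and 40.6% lower. The KO response called 8, 6 higher and 2 lower, against 78.5% of all genes, 37.5% higher and 41% lower. The count of receptors called is therefore near the background, and what follows is about the size and direction for each receptor. The median change of the 9 was 0.20 in WT and 0.45 in KO, and over all tested genes it was -0.02 and -0.03. TMM factors were 0.765 to 0.842 in the 4 h Jurkat libraries and 1.03 to 1.07 in the others. Scaling to total counts instead moved the median of all genes to -0.42 (WT) and -0.37 (KO). It moved the share of calls that were higher from 48.9% to 29% in WT and from 47.7% to 29.2% in KO. Changes below are relative to the TMM scale, and total-count values for 4 h of Jurkat cells against untreated cells are given where they turned a direction, made a call or moved a called value by over 1.5 times.

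**Figure D1:**
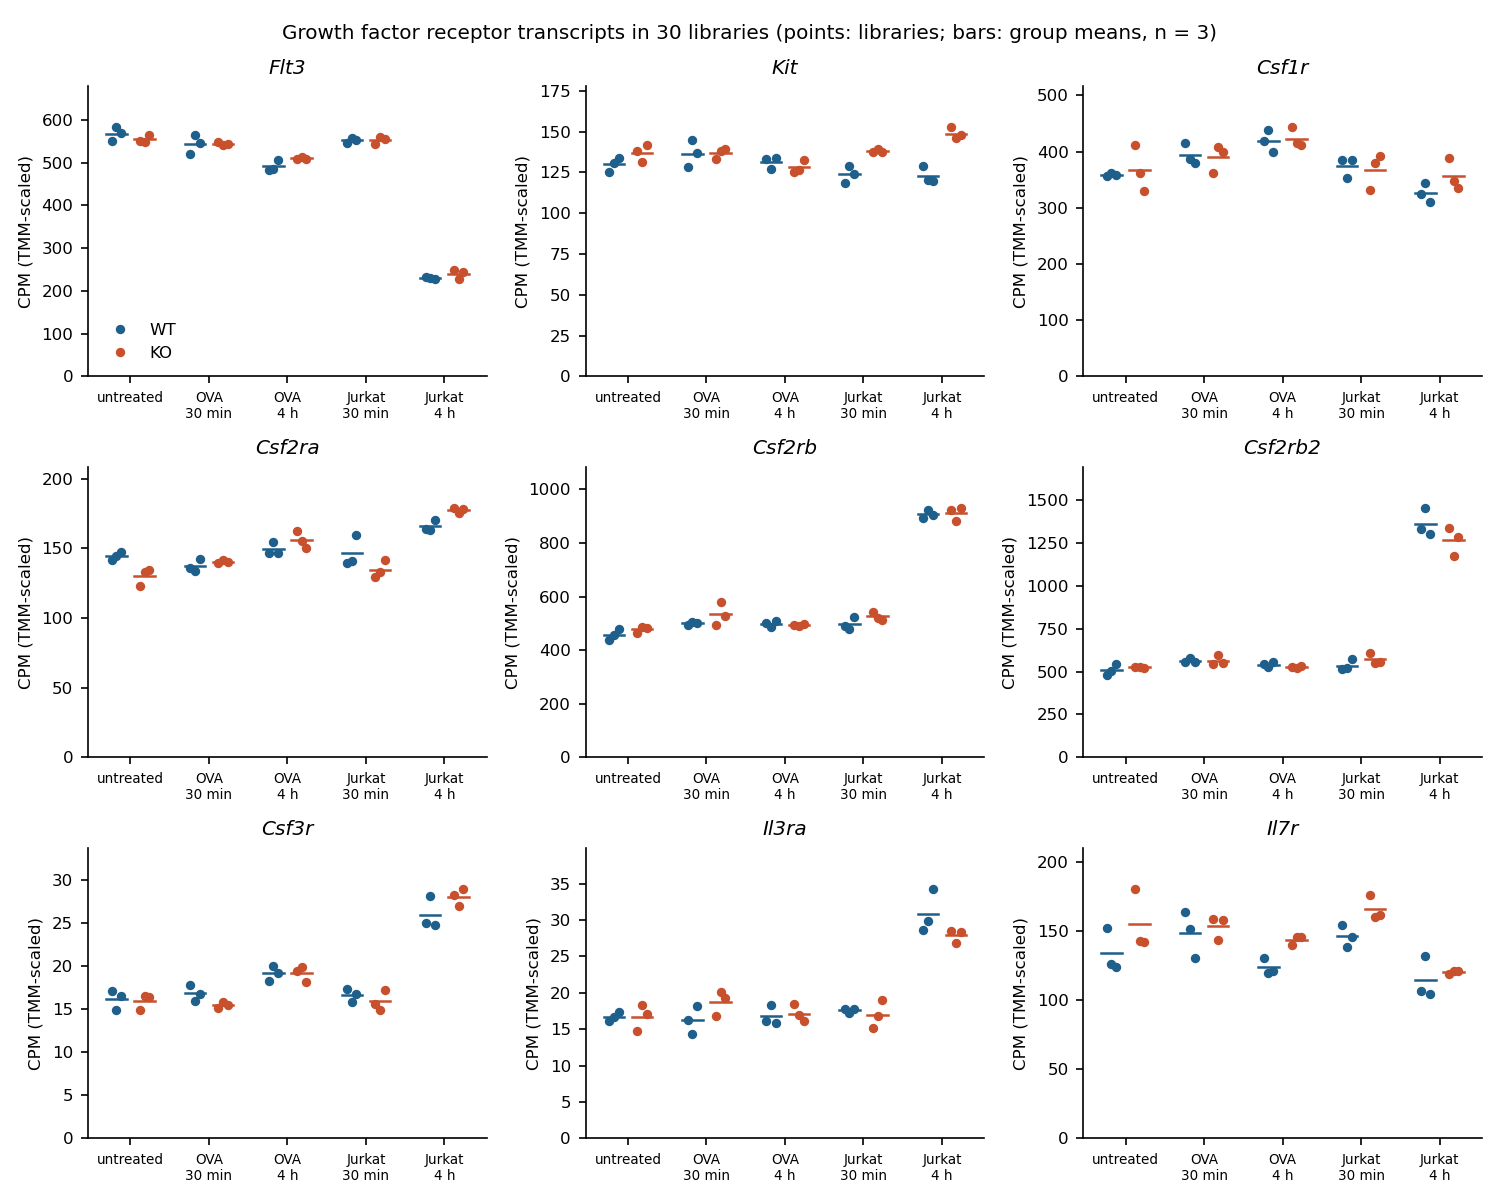
Level of each of the 9 receptor transcripts (vertical axis, CPM on TMM-scaled library sizes, starting at 0) in the 5 conditions (horizontal axis), for WT (blue) and KO (orange). Points are libraries and bars are means of 3. The 6 libraries given Jurkat cells for 4 h lie between 228 and 249 CPM for Flt3, where all others are at 483.7 CPM or above, and between 881.6 and 928.8 CPM for Csf2rb, where all others are at 580.3 CPM or below.

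Flt3 (Entrez 14255, mm10 chromosome 5, 147330742 to 147400489, minus strand) was the most abundant of the receptors per length in untreated cells. On the scale of CPM per kilobase of exon it stood at 155 ± 4.48 in WT. The next were Csf2rb2 at 107 ± 6.97, Csf2rb at 87.4 ± 4.01, Csf2ra at 77.6 ± 1.49 and Csf1r at 72.0 ± 0.52 CPM per kilobase. Il7r followed at 37.8, Kit at 24.8, Il3ra at 6.54 and Csf3r at 4.61. After 4 h with Jurkat cells the order in WT was different: Csf2rb2 stood first at 287, then Csf2rb at 174, Csf2ra at 89.1, Csf1r at 65.3 and Flt3 at 62.9 CPM per kilobase. Flt3 thus went from the top of the order to near Csf1r, at 62.9 ± 0.58 against 65.3 ± 3.41, a gap within the spread. In KO Csf1r stood at 71.7 ± 5.54 and Flt3 at 65.8 ± 2.87 CPM per kilobase. Exon lengths were the union of protein-coding exons in GENCODE M21.

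In the untreated WT libraries Flt3 was 549, 582 and 569 CPM, and in the WT libraries given Jurkat cells for 4 h it was 232, 229.5 and 228 CPM. The KO libraries held 551, 547 and 564 CPM untreated and 249, 229 and 244 CPM after 4 h. All 6 libraries of the 4 h Jurkat groups were low, and they overlapped no other library. The log2 fold change was -1.30 (SE 0.04, FDR 1.26e-23) in WT and -1.20 (SE 0.03, FDR 8.22e-23) in KO. Among all tested genes, 7.71% in WT and 7.70% in KO fell at least as far. The 2 responses differed by 0.10 (SE 0.05, FDR 0.28), so a genotype difference in the fall was not called.

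OVA for 4 h also went with a lower Flt3 level, by a much smaller amount. WT libraries held 484, 484 and 507 CPM and KO libraries 508, 513 and 509 CPM, all below the untreated libraries of their genotype. The change was -0.21 (SE 0.03, FDR 4.57e-05) in WT and -0.12 (SE 0.03, FDR 0.021) in KO. The KO call was lost when any of the 3 KO OVA 4 h libraries was left out, or untreated KO library 3, with values from -0.12 to -0.11. Between Jurkat cells and OVA at 4 h, Flt3 differed by -1.10 (SE 0.03, FDR 1.06e-21) in WT and -1.09 (SE 0.03, FDR 1.25e-21) in KO. At 30 min no treatment gave a called change, and the 4 group means ran from 543 to 553 CPM. In the order of the 10 group means, the 6 untreated and 30 min groups overlapped each other in turn, the 2 OVA 4 h groups lay below them all, and the 2 Jurkat 4 h groups lay lowest and overlapped.

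The genes whose group means followed Flt3 most closely over the 10 groups were Gpd1l (Pearson r 0.9995, Spearman 0.927) and Tmem8 (r 0.9993, Spearman 0.806). The 2 Jurkat 4 h groups set these values. Over the other 8 groups the closest were Amz2 (r 0.99) and Txndc16 (r 0.98).

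The ligand of Flt3 moved the same way. Flt3l was 18.8 ± 0.88 CPM in untreated WT and 5.95 ± 0.51 CPM after 4 h with Jurkat cells, a change of -1.66 (SE 0.07, FDR 2.40e-18). In KO it went from 16.4 ± 0.96 to 6.21 ± 0.59 CPM, a change of -1.40 (SE 0.07, FDR 1.27e-16). These are transcripts of the cultured cells and say nothing of the cytokine added to the medium.

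Kit (Entrez 16590, chromosome 5, 75574987 to 75656721, plus strand), the receptor for stem cell factor, differed by genotype with Jurkat cells. After 4 h the WT libraries held 129, 120.1 and 119.7 CPM and the KO libraries 153, 146 and 148 CPM. The groups did not overlap, and every KO library was the higher. KO exceeded WT by 0.28 (SE 0.04, FDR 3.19e-05), the only receptor called among the 9 in that comparison, where 22.9% of all genes were called. The call held when any of the 6 libraries was left out.

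At 30 min with Jurkat cells Kit was 119, 129 and 124 CPM in WT and 137, 139 and 138 CPM in KO, again without overlap. The difference was 0.16 (SE 0.04, FDR 0.019), the only receptor called where 9.25% of all genes were. It missed the threshold without KO library 2 (0.15, FDR 0.061), KO library 3 (0.16, FDR 0.052) or WT library 1 (0.13, FDR 0.11). In untreated cells the WT libraries held 126, 131 and 134 CPM and the KO libraries 138, 131 and 142 CPM, which overlap (difference 0.08, SE 0.04, FDR 0.30). With OVA the genotypes differed by 0.001 (SE 0.04, FDR 0.999) at 30 min and by -0.04 (SE 0.04, FDR 0.66) at 4 h.

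The 4 h Jurkat response of Kit itself was -0.08 (SE 0.04, FDR 0.085) in WT and 0.12 (SE 0.04, FDR 0.013) in KO. The difference of those responses was 0.20 (SE 0.06), which missed the threshold with edgeR (FDR 0.057) and passed it with DESeq2 (0.20, adjusted p 0.036). With libraries scaled to their total counts the WT response was called at -0.48 (FDR 5.17e-11) and the KO response turned to -0.22 (FDR 5.13e-05). On the TMM scale the KO response missed the threshold without KO Jurkat 4 h library 1 (0.10, FDR 0.068) or untreated KO library 2 (0.08, FDR 0.11). The direction of Kit over time in KO therefore depends on the scaling, while KO against WT at 4 h was 0.36 with total counts.

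Mast cell and basophil markers moved with the genotype as well. Their summed level over 7 genes was 21.5 to 27.8 CPM in WT and 54.8 to 85.5 CPM in KO, both untreated, and 24.6 to 36.6 against 77.1 to 108 CPM after 4 h with Jurkat cells. All 6 tested markers were called higher in KO in each of the 5 conditions, where 9.25% to 22.9% of all genes were called in either direction. None of the 7 was at 0 in any group. The most abundant of them were the proteases Prss34, at 12.7 ± 1.92 CPM in WT and 34.9 ± 7.82 in KO before treatment, and Mcpt8, at 3.57 ± 0.45 and 17.1 ± 4.06 CPM. Gata2, a transcription factor of progenitors and mast cells and one of these markers, stood at 2.12 ± 0.06 CPM in WT and at 5.45 ± 0.94 in KO before treatment (1.36, SE 0.14, FDR 1.20e-07). The stroma sum was also higher in KO, at 944 ± 121 against 700.3 ± 41.5 CPM untreated. Early progenitor markers moved the other way after 4 h with Jurkat cells: 5 of 7 were lower and 1 higher in KO (median -0.42), with a sum of 112 ± 5.06 against 126.5 ± 4.02 CPM. Of all genes 22.9% were called there, 40.9% of them higher. The mast cell markers differed also in untreated and OVA-treated cells, where Kit was not called. The part of these markers in the Kit difference was not tested.

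Over the 10 groups the genes closest to Kit were Sipa1l3 and Qtrt2, both at r 0.84, a looser likeness than for the other receptors. Over the 8 groups without 4 h of Jurkat cells they were Rpn2 (r 0.95) and Kpnb1 (r 0.93).

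**Figure D2:**
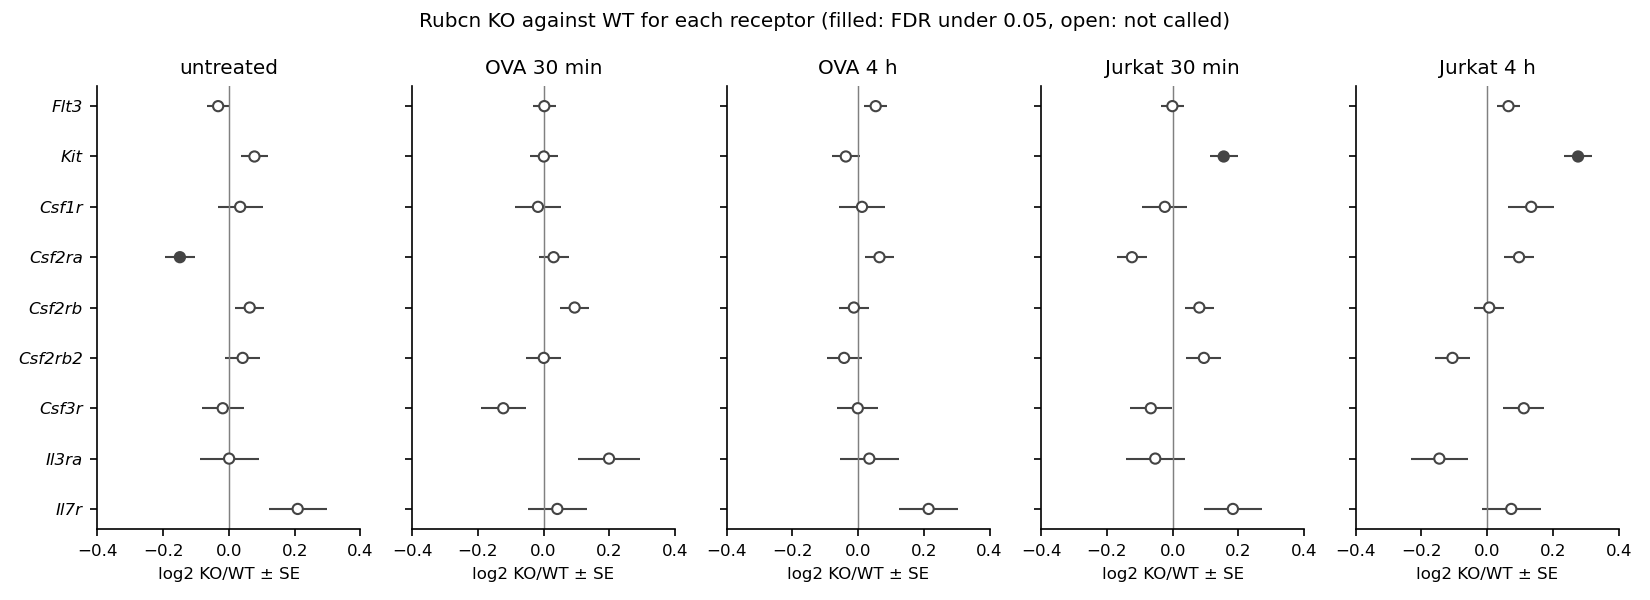
Difference between KO and WT for each receptor (horizontal axis, log2 KO/WT, bars are ± SE) in untreated cells and under the 4 treatments. Filled points were called at FDR under 0.05: Csf2ra in untreated cells (-0.15), Kit with Jurkat cells at 30 min (0.16) and Kit with Jurkat cells at 4 h (0.28). Every other point is open.

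Csf1r (Entrez 12978, chromosome 18), the receptor for macrophage colony-stimulating factor, rose in WT with OVA. Untreated WT libraries held 357, 362 and 359 CPM and WT OVA 4 h libraries 419.5, 439 and 399.6 CPM, without overlap. The change was 0.22 (SE 0.07, FDR 0.018), lost without WT OVA 4 h library 2 (0.19, FDR 0.089). In KO the untreated libraries spread from 329.6 to 412 CPM and the OVA 4 h libraries held 443, 415 and 411 CPM, and the change of 0.20 (SE 0.07, FDR 0.054) missed the threshold. After 4 h with Jurkat cells Csf1r was 324, 343 and 309.5 CPM in WT and 388, 348 and 336 CPM in KO, with changes of -0.14 (SE 0.07, FDR 0.063) and -0.04 (SE 0.07, FDR 0.59). With total counts both were called, at -0.55 (FDR 1.52e-08) and -0.38 (FDR 7.19e-06). Jurkat cells against OVA at 4 h gave -0.37 (SE 0.07, FDR 2.39e-05) in WT and -0.24 (SE 0.07, FDR 0.0022) in KO, and -0.75 and -0.59 with total counts. In GENCODE M21, exons of Csf1r share 873 bases with exons of Hmgxb3 on the other strand, and reads there cannot be told apart where counting did not use strand.

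Monocyte and macrophage markers rose beside it with OVA. The sum of 7 such genes was 578 ± 41.8 CPM in untreated WT and 833 ± 52.5 CPM after 4 h of OVA. Of the 7, 4 were called higher, where 11.9% of all genes were. The sum was also high after 4 h of Jurkat cells, at 1047 ± 108 CPM, where Csf1r was not called on the TMM scale and was lower with total counts. In KO the sum was 500.0 ± 70.5 CPM untreated, 666 ± 9.66 with OVA and 839 ± 60.7 with Jurkat cells. No marker was at 0 in any group, and their part in the Csf1r change was not tested. The genes closest to Csf1r were Trmt61a (r 0.94) and Sirpa (r 0.93) over 10 groups, and Abca1 (r 0.98) and Slc35d1 (r 0.97) over 8.

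The ligand gene Csf1 changed far more than its receptor. It was 36.8 ± 3.20 CPM in untreated WT and 215 ± 1.57 CPM after 4 h with Jurkat cells, a rise of 2.54 (SE 0.07, FDR 1.45e-23), and 49.0 ± 6.43 and 230 ± 8.83 CPM in KO, a rise of 2.23 (SE 0.07, FDR 1.95e-22). Csf1 was higher in KO in untreated cells (0.41, SE 0.07, FDR 0.00015), with OVA at 30 min (0.45, SE 0.07, FDR 6.74e-05) and 4 h (0.38, SE 0.07, FDR 0.00022) and with Jurkat cells at 30 min (0.55, SE 0.07, FDR 2.87e-06). After 4 h with Jurkat cells it was not called (0.10, SE 0.06, FDR 0.26).

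Csf2ra (Entrez 12982, chromosome 19, 61224402 to 61228418, minus strand), the alpha chain that gives the GM-CSF receptor its specificity, rose modestly and more in KO. Untreated WT libraries held 141, 144 and 147 CPM and Jurkat 4 h libraries 164, 163 and 170 CPM. Untreated KO libraries held 123, 133 and 135 CPM and Jurkat 4 h libraries 179, 175 and 178 CPM. Neither genotype's groups overlapped, and KO started lower and ended higher. The change was 0.20 (SE 0.05, FDR 0.00021) in WT and 0.45 (SE 0.05, FDR 4.06e-10) in KO. With total counts the WT change turned to -0.20 and the KO change was 0.11 (FDR 0.039), so the direction in WT depends on the scaling.

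The difference of the Csf2ra responses was 0.25 (SE 0.06, FDR 0.025), the only receptor called in that comparison, where 4.26% of all genes were called. It was lost when 1 of 5 libraries was left out: KO Jurkat 4 h library 3 (0.24, FDR 0.056), untreated KO library 1 (0.21, FDR 0.084), WT Jurkat 4 h library 2 (0.24, FDR 0.062), or untreated WT libraries 2 (0.25, FDR 0.054) or 3 (0.23, FDR 0.060). In untreated cells Csf2ra was lower in KO by -0.15 (SE 0.05, FDR 0.032), the only receptor called where 9.97% of all genes were. That call was lost without untreated KO library 1 (-0.11, FDR 0.21) or without untreated WT libraries 2 (-0.15, FDR 0.085) or 3 (-0.14, FDR 0.11). At 4 h with Jurkat cells the genotypes differed by 0.10 (SE 0.05, FDR 0.12).

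With OVA for 4 h Csf2ra was 162, 156 and 150 CPM in KO, above all untreated KO libraries (0.26, SE 0.05, FDR 0.00018). In WT it was 147, 154 and 147 CPM (0.05, SE 0.05, FDR 0.48). The difference of these responses was 0.21 (SE 0.06) and was not called (FDR 0.37). Csf2ra lay closest to Zfp653 (r 0.97) and Eme2 (r 0.95) over 10 groups and to Prr13 (r 0.95) and Dlg4 (r 0.94) over 8.

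Csf2rb (Entrez 12983, chromosome 15, 78325990 to 78351001, plus strand) encodes the beta chain shared by the receptors for GM-CSF, interleukin 3 and interleukin 5. Csf2rb2 (Entrez 12984, chromosome 15, 78282508 to 78305721, minus strand), its neighbour, encodes a beta chain that mice use for interleukin 3. The pair are near copies, which bears on how reads could be assigned to them. Over 2631 aligned bases their coding sequences were identical at 2505, or 95.2%. The first 120 coding bases of each (GENCODE M21 transcripts) are shown because reads from such a stretch could be hard to assign. Capitals mark the 4 bases that differ.
Csf2rb: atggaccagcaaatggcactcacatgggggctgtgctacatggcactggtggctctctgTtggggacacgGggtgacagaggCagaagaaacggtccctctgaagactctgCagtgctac
Csf2rb2: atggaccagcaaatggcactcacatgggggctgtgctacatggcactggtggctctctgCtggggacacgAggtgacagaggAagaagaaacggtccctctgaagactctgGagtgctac

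Of all windows of 50 bases along the Csf2rb transcript, 18.9% also occur in the Csf2rb2 transcript, and of windows of 100 bases 7.16% do. The rule by which the authors' counting split reads between copies is not given in the sources used here, so each gene's own count is uncertain.

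Both rose with 4 h of Jurkat cells. Csf2rb was 436, 456 and 478 CPM in untreated WT and 894, 925 and 904 CPM after 4 h. In KO it was 463, 486 and 483 CPM untreated and 923, 882 and 929 CPM after 4 h. The 6 treated libraries were above every other library. The rise was 0.99 (SE 0.05, FDR 4.01e-18) in WT and 0.93 (SE 0.05, FDR 1.83e-17) in KO, and 17.5% and 16.8% of all tested genes rose at least as far. With total counts the rise was 0.59 in each genotype (FDR 7.59e-13 and 6.36e-13).

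Csf2rb2 was 479, 503 and 545 CPM in untreated WT and 1332, 1451 and 1302 CPM after 4 h with Jurkat cells. In KO it was 526, 527 and 519 CPM untreated and 1337, 1172 and 1287 CPM after 4 h. It had the largest rise of the 9 receptors, at 1.42 (SE 0.05, FDR 4.91e-20) in WT and 1.27 (SE 0.05, FDR 7.18e-19) in KO. The counts of both genes added together rose by 1.23 (SE 0.05, FDR 8.78e-20) in WT and 1.12 (SE 0.05, FDR 9.23e-19) in KO, which does not rest on how reads were split. The responses of the sum differed between genotypes by -0.11 (SE 0.07, FDR 0.39).

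The pair did not rise equally. The ratio of Csf2rb2 to Csf2rb counts was 1.10, 1.10 and 1.14 in untreated WT and 1.49, 1.57 and 1.44 after 4 h with Jurkat cells. In KO it was 1.14, 1.08 and 1.07 untreated and 1.45, 1.33 and 1.39 after 4 h. In the other 24 libraries it stayed between 1.03 and 1.15. The ratio is within a library and does not depend on scaling. Whether the change in ratio comes from the genes or from the assignment of shared reads was not tested.

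**Figure D3:**
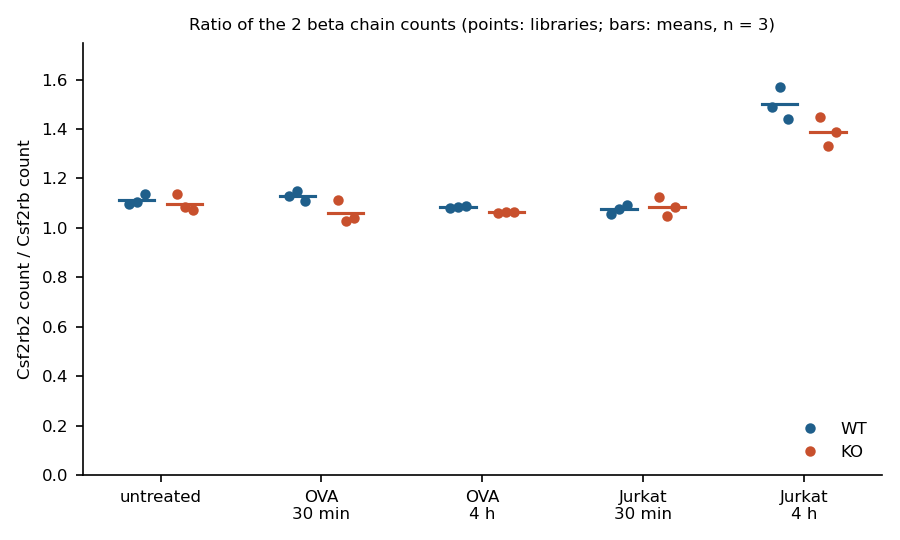
Ratio of the Csf2rb2 count to the Csf2rb count (vertical axis, starting at 0) in each library by condition (horizontal axis), for WT (blue) and KO (orange), with bars at the means of 3. The 6 libraries given Jurkat cells for 4 h lie between 1.33 and 1.57, and the others between 1.03 and 1.15.

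At 30 min Csf2rb was slightly higher than in untreated cells with Jurkat cells in WT (0.12, SE 0.04, FDR 0.042) and KO (0.14, SE 0.04, FDR 0.031) and with OVA in KO (0.16, SE 0.05, FDR 0.041). It was the only receptor called in each of those comparisons, where 28.7%, 17% and 3.77% of all genes were called. The WT call was lost without Jurkat 30 min libraries 1 or 3 or untreated libraries 1 or 2. The KO Jurkat call was lost without Jurkat 30 min libraries 1 or 2 or any untreated library, and the KO OVA call without OVA 30 min libraries 2 or 3 or any untreated library. None held for the summed count (FDR 0.14, 0.055 and 0.12). With OVA for 30 min in WT no receptor was called by edgeR, where 10.7% of all genes were, 2 had an unadjusted p under 0.05 and DESeq2 called 1. After 4 h of OVA Csf2rb was 501, 486 and 510.2 CPM in WT (0.13, SE 0.04, FDR 0.040). That call was lost with the sum (FDR 0.11) and without WT OVA 4 h libraries 1 (FDR 0.095) or 3 (FDR 0.13) or untreated WT libraries 1 (FDR 0.17) or 2 (FDR 0.093).

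Because the beta chains rose together while Flt3 fell, the 250 bases before the transcription start of Csf2rb2 and Flt3 are shown. They were read from RefSeq on GRCm38.p6. Windows were taken for 7 of the 9 receptors, without Csf1r and Csf2rb. Only these 2 of the 7 windows were clear of the receptor's own annotated exons. The windows lie on the minus strand at chr15:78305722-78305971 and chr5:147400490-147400739. Capitals mark matches, on either strand, to GAGGAA, a core bound by the factor PU.1, or to TTCNNNGAA, a STAT site.
Csf2rb2: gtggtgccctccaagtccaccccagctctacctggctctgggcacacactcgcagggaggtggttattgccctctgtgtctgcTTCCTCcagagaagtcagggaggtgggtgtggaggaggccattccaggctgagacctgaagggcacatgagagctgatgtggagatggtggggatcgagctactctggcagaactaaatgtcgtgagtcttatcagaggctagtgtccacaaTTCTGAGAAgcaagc
Flt3: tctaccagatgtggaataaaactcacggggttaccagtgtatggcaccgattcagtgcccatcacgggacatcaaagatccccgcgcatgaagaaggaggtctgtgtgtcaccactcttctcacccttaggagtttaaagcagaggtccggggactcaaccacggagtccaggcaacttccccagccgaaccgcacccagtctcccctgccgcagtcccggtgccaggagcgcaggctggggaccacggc

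The Csf2rb2 window held 1 match to each motif and the Flt3 window none. Over the 7 windows GAGGAA had 2 matches in Csf2ra and 1 each in Csf2rb2, Csf3r and Kit. It had none in Flt3 and Il7r, which fell, or in Il3ra, which rose. TTCNNNGAA had 1 match each in Csf2rb2, which rose, and Il7r, which fell, and none in the others. Whether either motif goes with the direction of change was not tested. Over 27025 promoter windows of the same length, 23.1% held GAGGAA and 7.18% held TTCNNNGAA. Neither the Csf2rb2 nor the Flt3 window matched the interferon-stimulated response element, held by 3.04% of promoters, or CACGTG, an E-box held by 6.05%. The motifs share no position in these windows, and a match is a description of letters, not of binding.

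Over the 10 groups Csf2rb lay closest to Nploc4 (r 0.9971) and Pim1 (r 0.9958), and Csf2rb2 to B3gnt5 (r 0.9986) and Snx4 (r 0.9981). Over 8 groups they were Elp6 and Mettl22 (both r 0.96) for Csf2rb, and Bend3 and Pias2 (both r 0.95) for Csf2rb2. The 2 beta chains correlated with each other at r 0.995 over 10 groups and at 0.89 over the 8 without 4 h of Jurkat cells, as a description of group means that share libraries.

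Il3ra (Entrez 16188, chromosome 14, 14346495 to 14355490, plus strand), the alpha chain of the interleukin 3 receptor, was scarce and rose with its beta chains. Untreated WT libraries held 16.1, 16.7 and 17.3 CPM and Jurkat 4 h libraries 28.6, 29.8 and 34.2 CPM. In KO they held 14.8, 18.3 and 17.1 CPM untreated and 28.5, 26.9 and 28.3 CPM after 4 h. No treated library overlapped an untreated library. The rise was 0.88 (SE 0.09, FDR 2.72e-10) in WT and 0.74 (SE 0.09, FDR 1.07e-08) in KO, a difference of -0.15 (SE 0.12, FDR 0.57). With total counts it was 0.48 (FDR 1.60e-05) and 0.40 (FDR 0.00019). OVA at 4 h gave 0.01 (SE 0.09, FDR 0.98) in WT and 0.04 (SE 0.09, FDR 0.85) in KO. Its exons share 46 bases with the antisense gene Gm48860, whose reads cannot be told apart without strand. Il3ra lay closest to Arrdc4 (r 0.99, Spearman 0.721) and Nmt1 (r 0.99, Spearman 0.673) over 10 groups, and to Rpl28 (r 0.92) and Shkbp1 (r 0.91) over 8.

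Csf3r (Entrez 12986, chromosome 4, 126024659 to 126044975, plus strand), the receptor for granulocyte colony-stimulating factor, was also scarce and rose with both treatments at 4 h. Untreated WT libraries held 17.1, 14.9 and 16.6 CPM, OVA 4 h libraries 18.3, 20.01 and 19.2 CPM and Jurkat 4 h libraries 25.1, 28.1 and 24.8 CPM. In KO the libraries held 14.9, 16.6 and 16.4, then 19.4, 19.9 and 18.2, then 28.3, 27.0 and 28.9 CPM. The 3 conditions did not overlap within either genotype, and the Jurkat libraries were highest. The rise with Jurkat cells was 0.69 (SE 0.06, FDR 6.32e-11) in WT and 0.82 (SE 0.06, FDR 1.10e-12) in KO. With total counts it was 0.28 (FDR 0.000165) and 0.48 (FDR 4.43e-08).

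With OVA for 4 h Csf3r rose by 0.25 (SE 0.06, FDR 0.0049) in WT and 0.27 (SE 0.06, FDR 0.0056) in KO. The WT call was lost without untreated WT library 2 (0.19, FDR 0.052). Jurkat cells against OVA at 4 h gave 0.44 (SE 0.06, FDR 3.19e-07) in WT, which was 0.05 (FDR 0.45) with total counts. Neutrophils depend on this receptor, and their marker sum was 130 ± 8.65 CPM in untreated WT, 140.0 ± 5.65 with OVA and 135 ± 2.90 with Jurkat cells at 4 h. In KO it was 111 ± 14.6, 112 ± 3.05 and 103 ± 2.57 CPM. Of the 7 markers 2 were called higher and 2 lower in WT with Jurkat cells, and 2 higher and 1 lower in KO. Of all genes 38.9% were called higher and 40.6% lower there in WT, and 37.5% and 41% in KO. Csf3r lay closest to Tfec and Pstpip2 (both r 0.99) over 10 groups and to Ms4a7 (r 0.97) and Pstpip2 (r 0.96) over 8.

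Il7r (Entrez 16197, chromosome 15, 9506159 to 9529876, minus strand), which pairs with Il2rg to bind interleukin 7, fell with 4 h of Jurkat cells. Untreated WT libraries held 152, 126 and 124 CPM and Jurkat 4 h libraries 107, 132 and 104 CPM, which overlap. Untreated KO libraries held 180, 143 and 142 CPM and Jurkat 4 h libraries 119, 121 and 121 CPM, which do not. The change was -0.23 (SE 0.09, FDR 0.022) in WT and -0.36 (SE 0.09, FDR 0.00053) in KO. With total counts it was -0.63 (FDR 8.30e-08) and -0.70 (FDR 1.16e-08). The WT call was lost without WT Jurkat 4 h libraries 1 (-0.18, FDR 0.10) or 3 (-0.17, FDR 0.12) or untreated WT library 1 (-0.13, FDR 0.19), and with DESeq2 (-0.16, adjusted p 0.14).

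Relative to its mean, Il7r was the receptor with the widest spread among untreated replicates, and 1 library in each genotype stood high there. KO exceeded WT by 0.21 (SE 0.09, FDR 0.15) untreated and by 0.21 (SE 0.09, FDR 0.12) with OVA at 4 h, neither called. The B lineage and lymphoid progenitor markers were low, 23.1 ± 1.44 CPM summed over 7 genes in WT and 24.7 ± 0.63 CPM in KO before treatment. Sox12 was its closest gene over 10 groups (r 0.98) and over 8 (r 0.98).

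**Figure D4:**
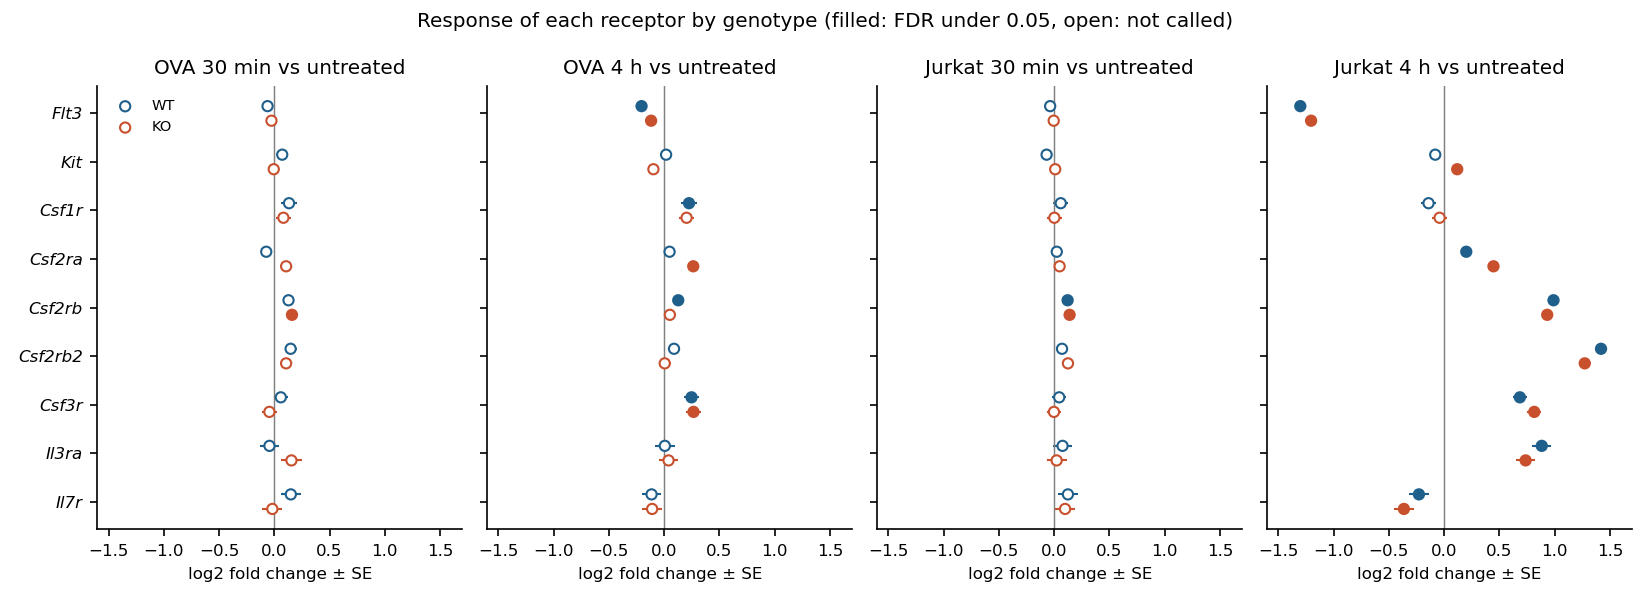
Change of each receptor from untreated cells (horizontal axis, log2 fold change, bars are ± SE) for OVA and Jurkat cells at 30 min and 4 h, in WT (blue) and KO (orange). Filled points were called at FDR under 0.05. After 4 h with Jurkat cells the points run from -1.30 for Flt3 to 1.42 for Csf2rb2 in WT, and under the other 3 treatments every point lies between -0.21 and 0.27.

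Across the receptors as a set, OVA for 4 h called 4 in WT, 3 higher and 1 lower, where 23.5% of all genes were called, 11.9% higher and 11.7% lower. The KO comparison called 3, 2 higher and 1 lower, where 11.6% were, 5.94% higher and 5.69% lower. Jurkat cells against OVA at 4 h called 8 in WT, 5 higher and 3 lower, where 77.5% of all genes were called, 37.2% higher and 40.3% lower. The KO comparison called all 9, 6 higher and 3 lower, where 76.4% were, 36.3% higher and 40.1% lower. These comparisons share libraries with those against untreated cells. With total counts Csf2ra turned from 0.15 to -0.23 in WT and from 0.18 to -0.16 in KO, and Kit in KO from 0.22 to -0.13. Kit was among the WT calls at -0.10 (FDR 0.039), a call that DESeq2 did not make (-0.03, adjusted p 0.61) and that was lost without WT Jurkat 4 h libraries 2 or 3 or WT OVA 4 h libraries 1 or 3. At 30 min Kit was the only receptor called between Jurkat cells and OVA in WT, at -0.14 (SE 0.04, FDR 0.015), where 24.3% of all genes were. That call was lost without WT Jurkat 30 min library 1 (-0.11, FDR 0.10) or WT OVA 30 min library 2 (-0.10, FDR 0.14). In KO at 30 min edgeR called 0, at an unadjusted p under 0.05 there were 0, and DESeq2 called 0, where 10.2% of all genes were called.

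KO against WT called 0 receptors with OVA at 30 min and at 4 h with edgeR and with DESeq2, where 12.4% and 12.6% of all genes were called, and 2 and 1 had an unadjusted p under 0.05. The difference of the KO and WT responses called 0 with OVA at 30 min and 4 h and with Jurkat cells at 30 min, by either tool, with 1, 1 and 0 receptors at an unadjusted p under 0.05. Of all genes 0, 0.0405% and 0.00675% were called there. On the TMM scale with all libraries Flt3 differed between the genotypes by at most 0.06 in any condition, with SE of 0.03. It was not called in any. Without KO Jurkat 4 h library 2, Flt3 differed by 0.10 after 4 h of Jurkat cells (SE 0.04, FDR 0.059). With total counts Flt3 was called higher in KO after 4 h of Jurkat cells (0.14, FDR 0.0035), as were Csf1r, Csf2ra and Csf3r beside Kit. With that scaling 20.3% of all genes were called higher and 6.84% lower. The median of all genes was 0.07, where it was -0.01 on the TMM scale.

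Other genes of these pathways were followed in 6 lists of 69 genes, of which 66 were tested. Il3, Il5 and Tslp did not pass the filter on low counts. Each count is read against the share of all genes called: 38.9% higher and 40.6% lower in WT and 37.5% and 41% in KO for 4 h of Jurkat cells, and 9.97% untreated and 22.9% after 4 h of Jurkat cells for KO against WT. With total counts those 4 h shares became 24.1% higher and 59.1% lower in WT and 23.9% and 58% in KO. In the ligand list, 4 of 7 tested genes rose and 1 fell with 4 h of Jurkat cells in each genotype, and 4 rose and 2 (WT) or 3 (KO) fell with total counts, where 79.5% (WT) and 78.5% (KO) of all genes were called on the TMM scale. Besides Csf1, the ligand genes that rose were at very low levels. Csf2, which encodes GM-CSF, was 0.014 ± 0.012 CPM in untreated WT and 0.717 ± 0.154 CPM after 4 h (FDR 3.34e-10). Csf3 reached 0.41 ± 0.11 CPM (FDR 5.21e-07) and Il7 1.29 ± 0.15 CPM (FDR 1.50e-06). Kitl, the ligand of Kit, was 2.46 ± 0.56 CPM untreated and 2.47 ± 0.74 CPM after 4 h (FDR 0.99).

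Partner receptors moved in both directions, 3 of 7 higher and 3 lower in WT and 2 higher and 3 lower in KO, or 1 higher and 4 (WT) or 3 (KO) lower with total counts. Il2rg, the chain that Il7r pairs with, was 199 ± 5.87 CPM in untreated WT and 737 ± 41.6 CPM after 4 h with Jurkat cells (1.89, SE 0.04, FDR 3.25e-25). It thus rose while Il7r fell. Il6ra, the interleukin 6 receptor alpha chain, went from 162 ± 6.10 to 27.1 ± 0.64 CPM (-2.58, SE 0.04, FDR 2.76e-28). Il2rg was lower in KO untreated (-0.21, SE 0.04, FDR 0.0011), with OVA at 4 h (-0.27, SE 0.04, FDR 3.72e-05) and with Jurkat cells at 4 h (-0.23, SE 0.04, FDR 0.00015).

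Of the genes that relay receptor signals, 13 of 16 were called higher and 0 lower with 4 h of Jurkat cells in each genotype, where 38.9% (WT) and 37.5% (KO) of all genes were called higher. The median was 0.47 in WT and 0.37 in KO, about the size of the shift between scalings. With total counts 8 were higher and 5 lower in WT (median 0.06) and 8 higher and 6 lower in KO (median 0.03), so the common direction depends on the scaling. Stat5a, a transcription factor activated by GM-CSF and interleukin 3, went from 118 ± 4.26 to 569 ± 24.1 CPM in WT (2.27, SE 0.06, FDR 1.19e-24). Jak2, the kinase held by the beta chains, went from 345 ± 12.0 to 1306 ± 125 CPM (1.92, SE 0.06, FDR 6.51e-22), and Stat3 from 293 ± 9.42 to 849 ± 67.6 CPM (1.54, SE 0.05, FDR 6.67e-22). In untreated cells 0 of 16 were called between the genotypes, where 9.97% of all genes were. After 4 h with Jurkat cells 2 were higher and 6 lower in KO, where 22.9% of all genes were called, 40.9% of them higher. With total counts 27.1% of all genes were called, 74.8% of them higher, and 2 of the 16 were higher and 3 lower. Without library 2 of the KO group 1 was higher and 3 lower, where 6.56% of all genes were called higher and 9% lower. Among the TMM calls were Fyn (-0.31), Pik3r1 (-0.22) and Lyn (-0.22), with Jak3 higher (0.26).

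Cish, an inhibitor that STAT5 induces, went from 0.57 ± 0.15 to 22.6 ± 1.35 CPM in WT (5.29, SE 0.19, FDR 1.68e-20). Socs1 went from 2.96 ± 0.20 to 78.0 ± 4.30 CPM (4.72, SE 0.13), Socs3 from 15.4 ± 1.21 to 360 ± 8.95 CPM (4.54, SE 0.09) and Socs2 from 11.04 ± 1.02 to 82.4 ± 6.19 CPM (2.90, SE 0.09). Among the 12 negative regulators 8 rose and 4 fell in each genotype, where 79.5% (WT) and 78.5% (KO) of all genes were called, and 6 rose and 4 fell with total counts. With OVA at 4 h 6 rose and 3 fell in WT, where 23.5% of all genes were called, and Socs1 (1.08, SE 0.16) and Socs3 (0.88, SE 0.09) were again among the larger rises. Socs3 was higher in untreated KO than in untreated WT, at 23.5 ± 0.40 against 15.4 ± 1.21 CPM (0.60, SE 0.09, FDR 4.88e-05).

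Of 10 survival and growth targets, 7 rose and 3 fell in WT and 6 rose and 4 fell in KO with 4 h of Jurkat cells, where 79.5% and 78.5% of all genes were called. With total counts 5 rose and 5 fell in WT and 5 rose and 4 fell in KO. Bcl2l1, which encodes the survival protein BCL-XL, went from 17.2 ± 0.46 to 272 ± 11.5 CPM in WT (3.99, SE 0.09), Ccnd2, a cyclin of the early cell cycle, from 123 ± 3.69 to 1616 ± 188 CPM (3.72, SE 0.09) and Pim1, a kinase induced by STAT5, from 73.0 ± 2.15 to 709 ± 26.0 CPM (3.28, SE 0.07). Ccnd2 was lower in KO at 4 h with Jurkat cells (-0.37, SE 0.08, FDR 0.0020) and with OVA (-0.28, SE 0.09, FDR 0.029).

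Of 14 lineage transcription factors 7 were higher and 6 lower in WT and 8 higher and 6 lower in KO, or 4 higher and 7 lower in each with total counts. Cebpb, a factor of inflammatory myeloid cells, rose by 2.45 (SE 0.15), while Cebpa fell by 2.42 (SE 0.06) and Irf4, which type 2 conventional dendritic cells need, by 1.41 (SE 0.06) in WT. The marker counts for 4 h of Jurkat cells that follow are read against all genes, 40.6% lower and 38.9% higher in WT. In KO 41% were lower and 37.5% higher. Of 6 markers of type 2 conventional dendritic cells, 6 were called lower in WT and 5 in KO. Their sum went from 1639 ± 25.0 to 913 ± 31.2 CPM in WT and from 1750 ± 68.3 to 1064 ± 37.4 CPM in KO. Of 7 markers of type 1 conventional dendritic cells, 4 were called lower and 2 higher in WT and 5 lower and 2 higher in KO. Their sum went from 2245 ± 106 to 1716 ± 62.0 CPM in WT and from 2324 ± 33.2 to 1699 ± 125 CPM in KO. After 4 h of OVA it stood at 2061 ± 13.04 CPM in WT and 2043 ± 6.55 CPM in KO. With OVA 3 of the 7 were lower in each genotype and 1 was higher in WT, where 11.7% (WT) and 5.69% (KO) of all genes were called lower. With 4 h of Jurkat cells the plasmacytoid sum went from 2302 ± 16.4 to 3224 ± 277 CPM in WT and from 2063 ± 72.7 to 2665 ± 138 CPM in KO. Of its 8 markers 4 were higher and 4 lower in WT (median 0.18), and 3 higher and 4 lower in KO (median 0.06). With total counts 3 were higher and 4 lower in WT (median -0.23), and 2 higher and 4 lower in KO (median -0.28). The sign of the median therefore depends on the scaling, and the sums are given on the TMM scale only. The sum of the 5 dendritic cell genes named at the start went from 14580 ± 1163 to 26280 ± 928 CPM in WT, with 3 higher and 1 lower (median 0.32), and 2 higher and 3 lower with total counts. No gene of these lists was at 0 in any group. The part of these cell types in the fall of Flt3 was not tested.

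**Figure D5:**
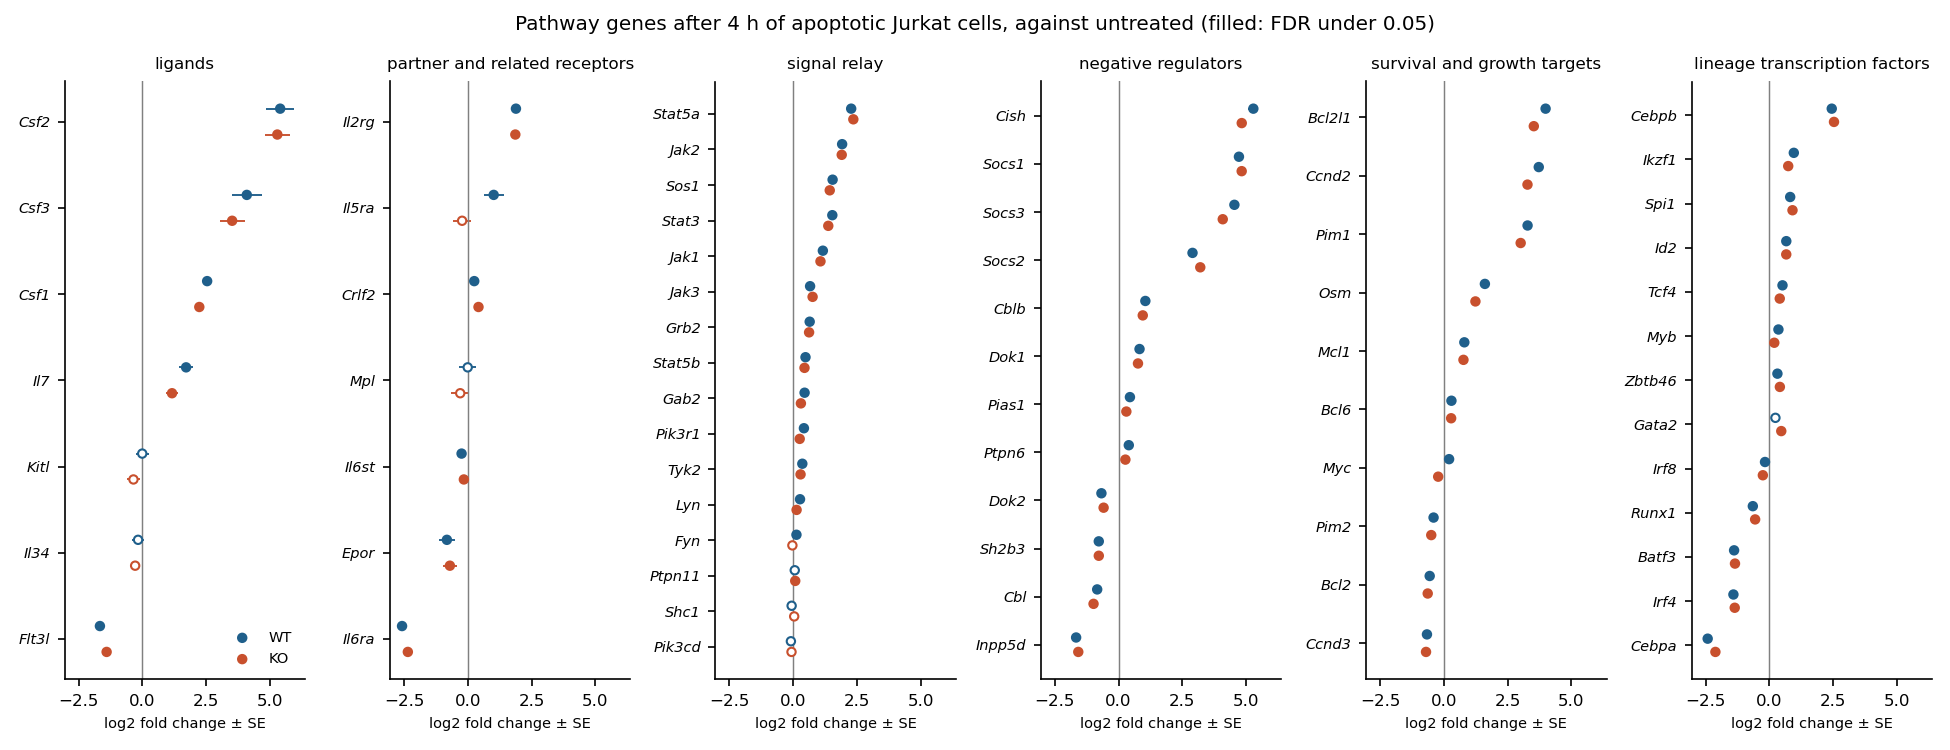
Change after 4 h with Jurkat cells (horizontal axis, log2 fold change from untreated, bars are ± SE) of the tested genes in 6 pathway lists, except 1 lineage transcription factor that is not reported, in WT (blue) and KO (orange), with filled points called at FDR under 0.05. In the signal relay panel 13 of 16 genes are called higher in each genotype, and Cish (5.29 in WT) leads the negative regulators.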

How the data were processed

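RNA from 30 libraries in 10 groups of 3 was sequenced after TruSeq RNA v2 preparation, per the labels' protocols. The authors deposited raw counts per gene, whole numbers with no normalization. The submitters' processing notes name STAR 2.5, Subread, featureCounts 1.5.0-p1, DESeq2 and the mm10 build. No annotation, strand setting or treatment of multi-mapping or human reads is given in the sources used here. Groups came from the labels.

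Counts were fitted with edgeR 4.0.16 in R 4.3.3 (TMM, filterByExpr, quasi-likelihood F test, 1 mean per group over all 30 libraries) for 21 comparisons, with Benjamini-Hochberg adjustment over 14808 of 25611 genes. The tested genes held 99.99% of counts. Each library was counted as a sample. Replicates differed beyond counting noise (chi-square per degree of freedom at least 2.276), which does not show that they came from separate mice or cultures. The fit was tested on simulated counts. The receptors and gene lists were chosen with earlier results of these data known. Named pathway genes were up to 4 per list and comparison with the largest called change and a level of 5 CPM or more in the higher of both groups, and other pathway genes named (Csf2, Csf3, Il7, Kitl and genes repeated in further comparisons) were chosen after their values were seen. Alternatives were DESeq2 1.42.0, its size factors, total-count scaling, no filter, a stricter filter (5 CPM in 3 libraries), the compared groups alone, a replicate block, summed beta chains and each library left out. Total-count and left-out-library values of the gene lists were added after the data were seen. Likeness was Pearson's r between group means, over genes of at least 5 CPM. In the totals of the gene lists, 1 gene is counted that is not reported here by name.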

Additional observations from a re-analysis of the deposited data

Results flagged for a closer look

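The response of Csf2ra to 4 h of Jurkat cells differed between the genotypes by 0.25 on the log2 scale (edgeR FDR 0.025), being 0.20 in WT and 0.45 in KO. It drew attention because the test of the difference between the genotypes' responses passed the threshold, which it did for no other receptor with edgeR. With total counts the WT response turned to -0.20.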

How the results depend on the processing

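Of 47 receptor calls, 341 refits with another scaling, filter, tool, block or choice of groups kept 310 on the same side of the threshold, ended 26 and reversed 5, and 288 refits without 1 library kept 242, ended 46 and reversed 0. All 5 reversals came with total counts: Csf2ra in WT at 4 h of Jurkat cells (-0.20), Csf2ra for Jurkat cells against OVA at 4 h in WT (-0.23) and KO (-0.16), Kit in KO at 4 h of Jurkat cells (-0.22) and Kit for Jurkat cells against OVA at 4 h in KO (-0.13). The cause was not tested.

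The number of receptors called moved by more than 1.5 times, or to or from 0, in the following cases. In WT with OVA at 30 min it went from 0 to 1 with DESeq2. In WT with Jurkat cells at 30 min it went from 1 to 0 with DESeq2's size factors, total counts and the compared groups alone. In KO with OVA at 30 min it went from 1 to 0 without the filter and with the compared groups alone, and in KO with Jurkat cells at 30 min from 1 to 0 with total counts. For KO against WT it went from 1 to 0 untreated and from 0 to 1 with OVA at 4 h, each with total counts and with the compared groups alone. With Jurkat cells it went from 1 to 2 at 30 min with DESeq2. At 4 h it went from 1 to 5 with total counts, where 27.1% of all genes were called, 20.3% higher. For the difference of responses at 4 h of Jurkat cells it went from 1 to 2 with total counts, the stricter filter and DESeq2. For Jurkat cells against OVA at 30 min in WT it went from 1 to 0 with the compared groups alone.

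With each library left out in turn, the number called ran from 0 to 2 (WT, OVA 30 min), 2 to 4 (WT, OVA 4 h), 0 to 1 (WT, Jurkat 30 min), 6 to 8 (WT, Jurkat 4 h), 0 to 1 (KO, OVA 30 min), 2 to 4 (KO, OVA 4 h), 0 to 1 (KO, Jurkat 30 min) and 7 to 8 (KO, Jurkat 4 h) against untreated cells. For KO against WT it ran from 0 to 2 (untreated), 0 to 1 (OVA 30 min), 0 to 0 (OVA 4 h), 0 to 1 (Jurkat 30 min) and 1 to 1 (Jurkat 4 h). For the difference of responses it ran from 0 to 2 at 4 h of Jurkat cells and was 0 otherwise. For Jurkat cells against OVA it ran from 0 to 1 and 7 to 8 in WT, and was 0 and 9 in KO, at 30 min and 4 h.

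Over all genes, calls with the compared groups alone fell from 1578 to 833 (WT, OVA 30 min), 558 to 246 (KO, OVA 30 min), 2514 to 1460 (KO, Jurkat 30 min), 1370 to 891 (KO against WT, Jurkat 30 min), 1514 to 734 (KO, Jurkat cells against OVA, 30 min) and 631 to 337 (difference of responses, Jurkat 4 h). The difference of responses with OVA at 4 h called 6 genes, and 11 without the filter, 10 with the stricter filter, 12 with the block and 25 with DESeq2. With Jurkat cells at 30 min it called 1, and 7, 0, 0 and 12 in the same order, and 0 with the compared groups alone. With total counts the share of calls that were higher went from 40.9% to 74.8% for KO against WT at 4 h of Jurkat cells and from 40.3% to 76.8% for the difference of responses.

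Whether replicate numbers pair the libraries is not settled. Deviations of same-numbered libraries within a genotype correlated at -0.452 to 0.72 (median 0.061, over 0.1 in 24 of 60 pairs). Those of differently numbered libraries correlated at -0.792 to 0.47 (median -0.012, over 0.1 in 40 of 120 pairs). These ranges overlap widely, so the check cannot exclude pairing. A replicate block ended no receptor call, and Kit in KO against WT at 4 h of Jurkat cells was 0.28 with the block across genotypes. With 3 libraries a group and total counts of 9.73 M to 51.6 M, small differences in Il3ra and Il7r were the least precise (SE up to 0.09 on the log2 scale against untreated cells).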
